A study of Mus musculus with 6 samples.

Results

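The genes described here are Trp53, which encodes the transcription factor p53, and 9 genes linked to growth arrest below it, namely Mdm2, Ccng1, Gadd45a, Gadd45b, Gadd45g, Phlda3, Sesn1, Btg1 and Btg2. They were measured in 32D cells, an interleukin-3-dependent line from the bone marrow of a C3H/HeJ mouse infected with Friend leukemia virus. The 3 mock samples were transduced under the label MSCVpuro, a retroviral vector with puromycin resistance, and the other 3 were transduced with the fusion gene Nup98::Nsd1, which is found in acute myeloid leukaemia. The sources used here do not give the promoter that drives the fusion, or whether either line was 1 clone or a pool. Each of the 6 samples was hybridised to 1 Affymetrix Mouse Genome 430 2.0 array, on which a gene is read by 1 or more probe sets. Members were all probe sets annotated to one of the 10 symbols alone: 21 of the 45037 that are not controls, covering 9 of the 10 genes. No probe set was listed under Trp53 alone, so its level was not analysed here. Of the 21, 19 were tested, at least 1 for each of the 9 genes, because in mock or in Nup98::Nsd1 cells (or both) all 3 arrays called them Present.

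In a cell with damaged DNA or other stress, p53 is stabilised and switches on genes that halt the cell cycle, repair DNA or start cell death. Mdm2, a ubiquitin ligase that marks p53 for destruction, is itself a p53 target, which closes a feedback loop. Among the other members, the Gadd45 proteins bind cell cycle and stress kinases. The Btg proteins act on mRNA decay and restrain proliferation, and sestrins damp growth signalling through mTORC1.

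Since p53 acts by binding DNA near its targets, the sequence before each gene's start was read from RefSeq promoter windows (build GRCm38.p6), each of 250 bases before to 50 after an annotated start; all 10 genes matched, with 11 windows because Sesn1 has 2 starts. The p53 half-site consensus, searched on both strands, was found in 5 of these 11 windows, against 8.36% of all 32851 windows. The 5 stretches that hold it are shown because their genes include the member with the largest rise, Gadd45a, and the one with the largest fall, Ccng1; capitals mark the half-site. Gadd45a lies at chr6:67035096-67037407 and its stretch at chr6:67037408-67037657, minus strand. That of Ccng1, whose gene lies at chr11:40748552-40755309, is chr11:40755310-40755536, minus strand. Mdm2 (chr10:117688875-117710758) is preceded by the stretch chr10:117710910-117710969, minus strand, and Trp53 (chr11:69580348-69591873) by chr11:69580259-69580318, plus strand. The Sesn1 stretch, chr10:41887241-41887300 on the plus strand, lies inside the gene (chr10:41810574-41908436), before its inner start.
Gadd45a: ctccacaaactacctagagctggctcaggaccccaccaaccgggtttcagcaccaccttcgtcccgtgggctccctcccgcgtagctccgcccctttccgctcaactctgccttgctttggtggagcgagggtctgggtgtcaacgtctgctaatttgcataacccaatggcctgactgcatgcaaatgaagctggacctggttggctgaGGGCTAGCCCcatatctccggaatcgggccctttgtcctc
Ccng1: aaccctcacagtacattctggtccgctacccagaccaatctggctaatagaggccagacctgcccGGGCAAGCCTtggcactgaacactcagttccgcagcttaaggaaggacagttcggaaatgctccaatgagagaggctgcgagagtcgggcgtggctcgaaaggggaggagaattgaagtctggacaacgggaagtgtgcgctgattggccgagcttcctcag
Mdm2: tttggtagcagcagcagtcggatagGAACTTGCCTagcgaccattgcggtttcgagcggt
Sesn1: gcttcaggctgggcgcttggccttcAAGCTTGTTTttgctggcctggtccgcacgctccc
Trp53: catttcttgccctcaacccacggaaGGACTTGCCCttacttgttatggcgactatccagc
The half-site began 40 bases before the start of Gadd45a, 185 before that of Ccng1, 186 before that of Mdm2, 173 before the inner start of Sesn1 and 75 before that of Trp53. These distances are counted from the start that each window uses, which for Ccng1 (base 40755286) and Trp53 (base 69580359) lies inside the gene bounds given above. A p53 element upstream of mouse cyclin G1 is well known, and that of Mdm2 lies in its first intron, outside the window. The search asked for a single half-site only. Whether any of the 5 stretches, that of Gadd45a included, holds a working p53 element was not tested. Of the other motifs searched on both strands, TGACGTCA, the cyclic AMP response element, was found before Btg2 alone among the members (1.79% of all windows). CACGTG, the E-box, was found in the windows of Gadd45b, Gadd45g and Trp53 (7.15% of all windows), and TATAAA in those of Btg1, Gadd45b, Gadd45g and Trp53 (13.6%). A match of letters is a description and not evidence of binding, and binding was not measured.

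The libraries themselves showed differences that may bear on the values below. Of the 8 markers fixed for 32D myeloid progenitors, 6 were called Present on all mock arrays and 5 on all Nup98::Nsd1 arrays, with Kit and Cd34 Present on all arrays of neither group; their summed signal was 44449 to 46825 in mock and 28224 to 28733 in Nup98::Nsd1 cells. The markers of this list did not all go the same way in the signals as deposited. Mpo was at 18198 to 19864 in mock and 5160 to 5224 in Nup98::Nsd1 cells. Prtn3 was at 8949 to 9596 and 4823 to 4943, and Elane at 148 to 210 and 58.6 to 96.1, in the same order. Ctsg (10141 to 10675 and 10759 to 10915), Csf2rb (4645 to 4708 and 5080 to 5404) and Spi1 (1743 to 1911 and 2211 to 2318) were higher in Nup98::Nsd1 cells without overlap. The markers were not compared under the other scalings. Of the 8 fibroblast and 5 T cell markers on the array, 0 were Present on all arrays of a group; 1 of 4 B cell markers (Cd22) was so in both, and of 3 erythroid markers 2 (Epor and Klf1) were so in mock and 1 (Epor) in Nup98::Nsd1 cells. The summed signals of these lists were 272 to 343 and 293 to 394 for fibroblasts, 214 to 232 and 156 to 179.6 for T cells, 128 to 233 and 232 to 316 for B cells and 475 to 539 and 371 to 415 for erythroid cells, in mock and Nup98::Nsd1 cells in turn. The ratio of 3' to 5' control signal of Actb, a measure of RNA and labelling quality, averaged 1.18 ± 0.0304 over the mock and 1.47 ± 0.0263 over the Nup98::Nsd1 arrays (SD, n = 3 each), and the part of these differences in the results was not tested. Nothing in the labels says that the samples came from separate cultures, so the p-values reflect the spread among these samples alone, and that may be technical. The number of arrays limits the precision. Signals are MAS5 intensities, scaled per array by the authors, and the median log2 fold change of all tested probe sets was 0.15.

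The members did not move as a block in Nup98::Nsd1 cells. Gadd45a rose 3.87-fold, Btg2 rose 2.18-fold and 1.86-fold at its 2 probe sets, and Btg1 rose at both probe sets that were Present on all arrays. Ccng1 fell at all 3 of its probe sets and Gadd45b at both that were tested. Mdm2 fell slightly at 1 of its 2 tested probe sets, Gadd45g and Phlda3 did not pass the threshold, and Sesn1 differed between its probe sets. Of the 19 tested probe sets 8 were called higher and 6 lower (limma, adjusted p under 0.05), against 42.3% higher and 27.6% lower of all 20494 tested, so that the member count of 14 called is near the background of 69.9%. With arrays scaled to their hybridization controls, 6 were called higher and 10 lower, against 22.3% and 46.8% of all tested probe sets under that scaling. The groups did not overlap at 15 of the 19, against 73.2% of all tested probe sets. The median log2 fold change of the 19 was 0.12. Changes of at least 2-fold were called upward at 4 member probe sets, where 12.8% of all tested reached this, and downward at 1, where 3.13% did. The 4 include Btg1 1442018_at, tested only through its Nup98::Nsd1 arrays, and the dim Sesn1 1444376_at, with mock signals of 35.6 to 56.2. In bulk RNA, fewer cells with a transcript and less of it per cell cannot be told apart.

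**Figure D1:**
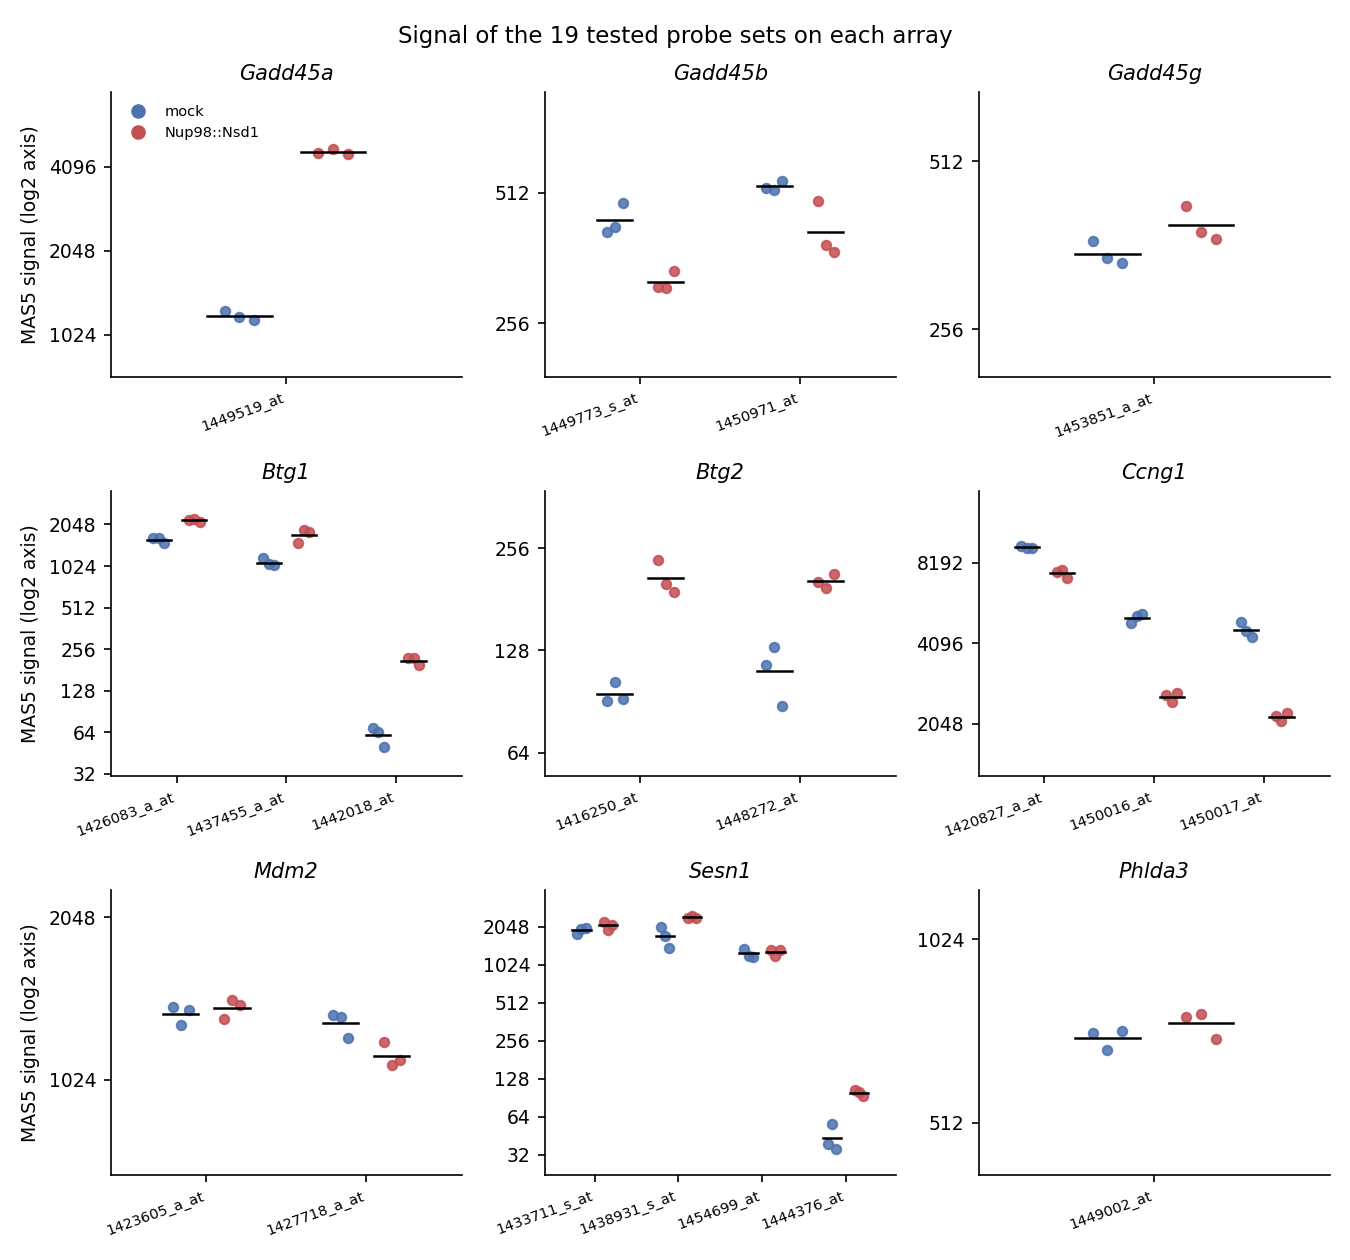
Each panel is a gene and each point the MAS5 signal of 1 array (log2 axis) at a tested probe set named below it, mock in blue and Nup98::Nsd1 in red, with a black line at the mean of 3 arrays. Gadd45a, Btg1 and Btg2 lie higher and Ccng1 and Gadd45b lower in Nup98::Nsd1 cells, with no overlap of the groups at any of their tested probe sets.

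The 3 Gadd45 genes encode small acidic stress proteins that bind the kinase MTK1 and cell cycle proteins such as PCNA. Gadd45a, the classical p53 target among them, is read by 1 probe set. Its signal was 1248, 1182 and 1161 on the mock arrays and 4588, 4746 and 4549.9 on the Nup98::Nsd1 arrays. The groups were far apart, each tight within itself (1197 ± 45.3 and 4628 ± 104, mean ± SD, n = 3 each; log2 fold change 1.95, SE 0.047, limma adjusted p = 7.11e-11). Of the 20494 tested probe sets it had the 454th largest rise. Over the 4 other scalings of the arrays its log2 fold change stayed between 1.59 and 2.00.

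Gadd45b, also known as MyD118 from its induction during myeloid differentiation, went the other way. At the brighter probe set, 1450971_at, the signal was 526, 521 and 547 on mock and 489, 388 and 373 on Nup98::Nsd1 arrays. All 3 Nup98::Nsd1 arrays were lower than any mock array, although one of them, at 489, lay close to the mock level (log2 fold change -0.36, SE 0.106, limma adjusted p = 0.0101). The second, 1449773_s_at, gave 416, 426 and 486 against 311, 309 and 339, again without overlap (log2 fold change -0.47, adjusted p = 0.00126); the ending _s_at is used for probe sets that may read transcripts of more than 1 gene. A further probe set of Gadd45b, 1420197_at, was called Present on 1 of 6 arrays, at signals of 109 to 151, and was not tested.

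Gadd45g, induced early by cytokines and growth arrest, had 1 probe set. Its signal was 368, 343 and 337 on mock and 426, 382 and 372 on Nup98::Nsd1 arrays. The groups did not overlap, but the gap between them was narrow and the difference did not pass the threshold (log2 fold change 0.17, 95% interval -0.04 to 0.38, limma adjusted p = 0.138). Under each of the 4 other scalings its log2 fold change lay below 0, from -0.20 to -0.0001. Relative to Gadd45b on the same array, Gadd45a changed by 2.31 on the log2 scale, and relative to Gadd45g by 1.78, differences that do not change when a whole array is multiplied by a constant. In both, the groups did not overlap (exact permutation test, two-sided, p = 0.1, which with 3 arrays in each group is as low as it can go). They belong to 6 such pairs, picked after the values were seen, and all 6 had an exact permutation p = 0.1, also after Benjamini-Hochberg adjustment.

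Btg1 and Btg2 are antiproliferative proteins that bring the CCR4-NOT deadenylase to mRNAs; Btg2 is a direct p53 target. The signal of Btg2 at 1448272_at was 116, 131 and 87.7 on mock and 203, 195 and 215 on Nup98::Nsd1 arrays. Every Nup98::Nsd1 array was above every mock array (log2 fold change 0.89, SE 0.177, limma adjusted p = 0.000776). At 1416250_at it was 90.7, 104 and 91.9 against 236, 200.4 and 189.9. Here too the groups were apart (log2 fold change 1.12, SE 0.161, adjusted p = 6.68e-05), and both probe sets were called Present on all 6 arrays. The rise kept its call under each scaling, at 0.49 or more at 1448272_at and 0.72 or more at 1416250_at. Both probe sets were dim in mock cells. With 64 added to every signal the log2 fold changes shrank to 0.62 at 1448272_at and 0.77 at 1416250_at, still called.

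Btg1 is read by 3 probe sets. The brightest, 1426083_a_at, gave 1626, 1645 and 1499 on mock and 2212, 2235 and 2139 on Nup98::Nsd1 arrays. This rise, without overlap, was modest (log2 fold change 0.47, SE 0.052, limma adjusted p = 8.59e-06) and with hybridization control scaling was 0.10 and no longer called. The second, 1437455_a_at, gave 1162, 1061 and 1034 against 1500.1, 1857 and 1814 (log2 fold change 0.66, adjusted p = 1.96e-05). The dimmest, 1442018_at, gave 69.1, 64.4 and 49.7, Present on 1 of the 3 mock arrays, the one at 49.7, against 219.9, 219 and 196, a fitted log2 fold change of 1.81 (SE 0.189, adjusted p = 5.13e-06). It was tested only because the Nup98::Nsd1 arrays called it Present, and among probe sets Present on all 6 arrays 7 members were called higher in place of 8. Of all 17905 probe sets Present on all 6 arrays, 7392 were called higher. The sources used here do not say which Btg1 transcripts each one reads. Relative to the brightest probe set of Btg1, that of Btg2 changed by a further 0.43 on the log2 scale (exact permutation p = 0.1, the smallest possible).

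**Figure D2:**
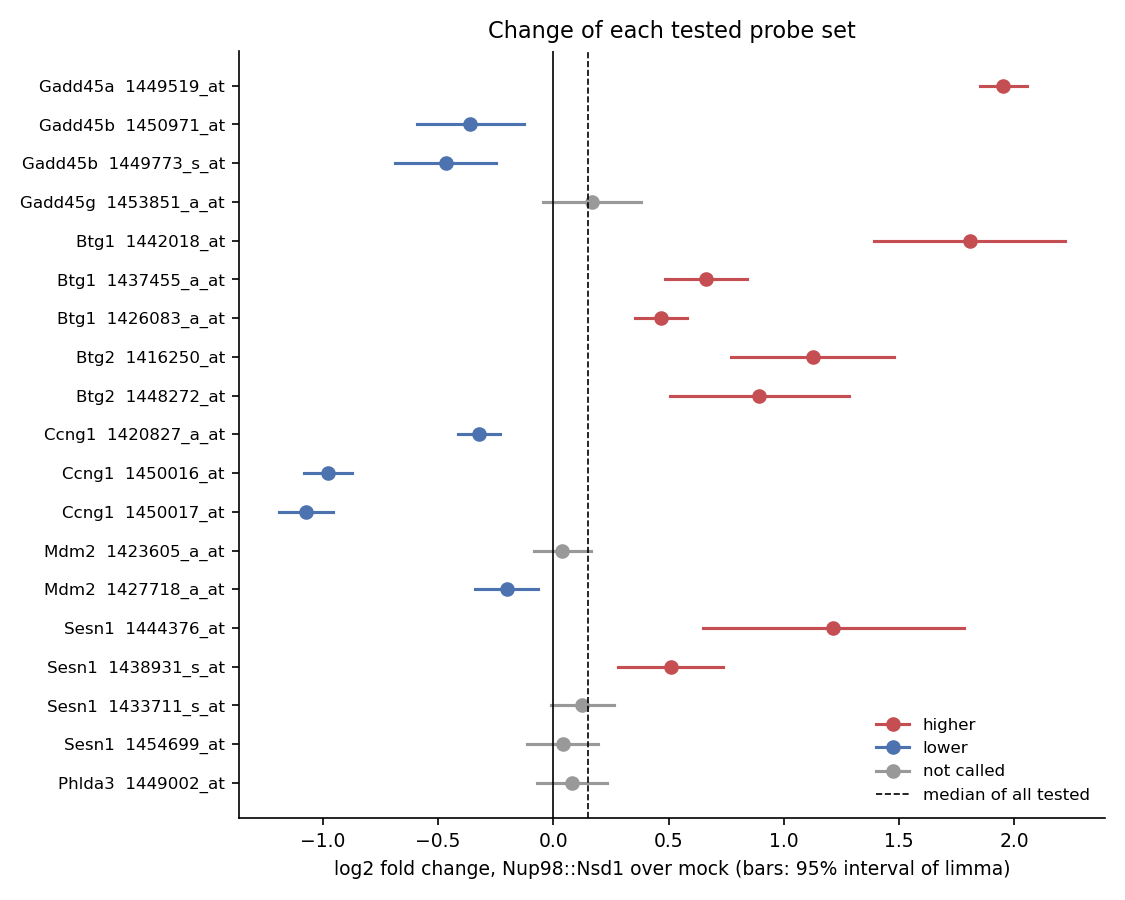
Points are the log2 fold changes of the 19 tested probe sets, Nup98::Nsd1 over mock, with 95% intervals from limma; red was called higher, blue lower and grey not called, and the dashed line is the median of all tested probe sets, 0.15. Gadd45a stands highest at 1.95 and the Ccng1 probe set 1450017_at lowest at -1.07.

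Ccng1 encodes cyclin G1, a p53 target that brings the phosphatase PP2A to Mdm2. It fell at each of its 3 probe sets. At the brightest, 1420827_a_at, the signal was 9486, 9282 and 9312 on mock and 7581, 7717 and 7171 on Nup98::Nsd1 arrays. The groups were clearly apart, for a fall of 0.32 on the log2 scale (SE 0.0408, limma adjusted p = 2.47e-05). The other two probe sets fell further on that scale. At 1450016_at the signal was 4863, 5163 and 5272 against 2623, 2478 and 2671 (log2 fold change -0.98, SE 0.0479, adjusted p = 1.09e-08). At 1450017_at it was 4909.6, 4547 and 4323 against 2194, 2100.4 and 2245, 2.11-fold lower (log2 fold change -1.07, SE 0.0533, adjusted p = 1.2e-08). The annotation gives the same source sequence for all 3. Their directions agreed under each scaling, with values from -0.24 to -1.44.

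Mdm2, the ligase in the p53 feedback loop, showed little difference. The brighter probe set, 1423605_a_at, gave 1397, 1290.0 and 1376 on mock and 1327, 1439 and 1409 on Nup98::Nsd1 arrays. The groups overlapped, and the 95% interval of the log2 fold change ran from -0.09 to 0.16 (0.04, limma adjusted p = 0.554). At 1427718_a_at the signal was 1351, 1337 and 1225 against 1201, 1091 and 1111, a small fall without overlap (log2 fold change -0.20, SE 0.0623, adjusted p = 0.0128). The brighter probe set was called lower with 75th percentile centring (-0.16) and with hybridization control scaling (-0.33), and none of the alternatives tried called Mdm2 higher. The remaining probe set, 1457929_at, was called Present on 1 array, at signals of 4.26 to 53.3, and was not tested. On the same arrays, Ccng1 at its brightest probe set changed by -0.36 relative to Mdm2 on the log2 scale (exact permutation p = 0.1, the smallest possible).

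Sesn1, a sestrin that restrains mTORC1 through GATOR2, had 4 tested probe sets with different outcomes. At the brightest, 1438931_s_at, the signal was 2023, 1735 and 1392 on mock and 2376, 2489.6 and 2384 on Nup98::Nsd1 arrays. The mock arrays were widely spread but all below the others (log2 fold change 0.51, SE 0.104, limma adjusted p = 0.000955), and with hybridization control scaling the change was 0.14 and not called. At 1433711_s_at it was 1802, 1951 and 1996 against 2236, 1938 and 2099, with overlap (log2 fold change 0.12, 95% interval -0.01 to 0.26, adjusted p = 0.0928). At 1454699_at it was 1369, 1204 and 1184 against 1331, 1195 and 1333, also with overlap (log2 fold change 0.04, 95% interval -0.12 to 0.19, adjusted p = 0.63). The dimmest, 1444376_at, rose from 38.6, 56.2 and 35.6 to 104, 101 and 92.7 (log2 fold change 1.21, SE 0.257, adjusted p = 0.00124), the widest error of the 19. The 2 called probe sets thus rose and the other 2 were not called, so no single level stands for Sesn1. With hybridization control scaling, 1433711_s_at and 1454699_at were called lower, at -0.24 and -0.33.

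Phlda3, a protein with a PH domain that competes with Akt for membrane lipids, had 1 probe set, at 718, 673 and 723 on mock and 763, 771 and 704 on Nup98::Nsd1 arrays. The groups overlapped and the difference was not called (log2 fold change 0.08, 95% interval -0.07 to 0.23, limma adjusted p = 0.314); under the 4 other scalings its log2 fold change lay below 0, and with hybridization control scaling it was called lower, at -0.28.

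**Figure D3:**
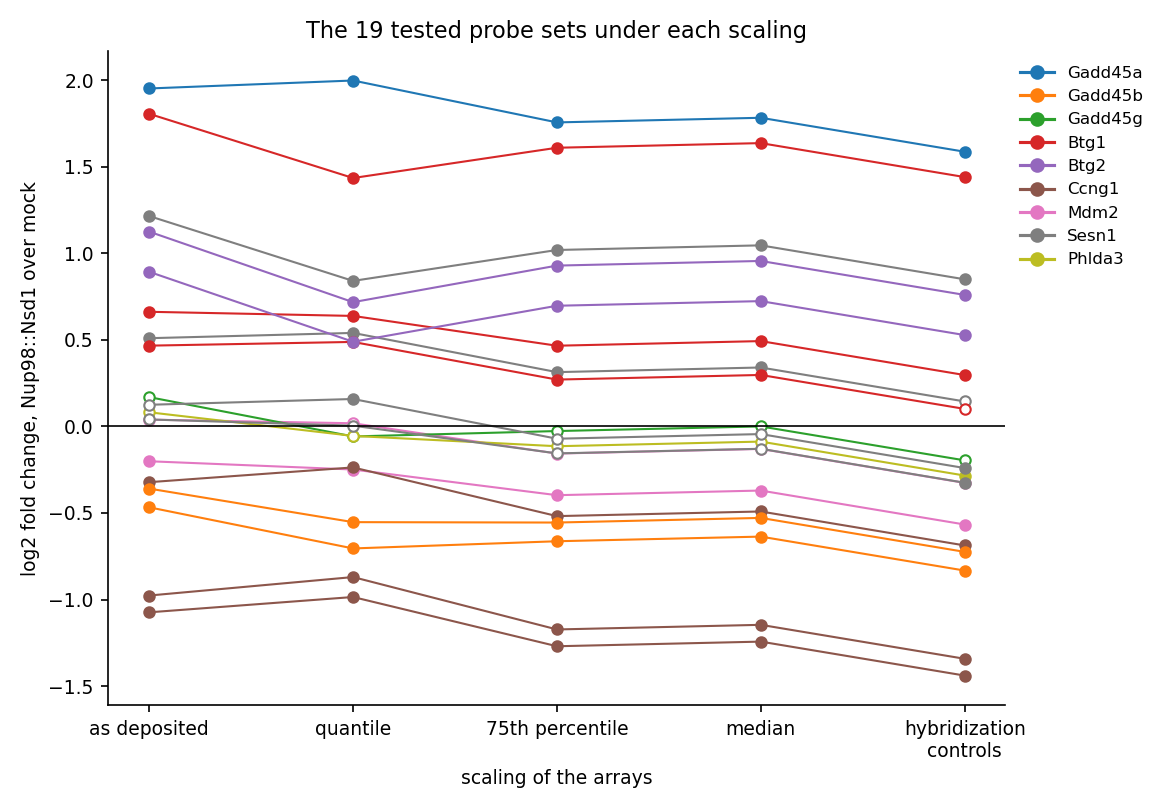
Lines join the log2 fold change (vertical axis, Nup98::Nsd1 over mock) of each of the 19 tested probe sets across 5 scalings of the arrays (horizontal axis); filled points have an adjusted p under 0.05. Gadd45a, Btg2, Ccng1 and Gadd45b keep their direction and call throughout, while Gadd45g, Phlda3, Mdm2 1423605_a_at and the Sesn1 probe sets 1433711_s_at and 1454699_at cross 0.

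Genes that control p53 were called in both directions, in shares near those of all genes. Of 22 listed regulators 18 were tested, each at its brightest probe set: 7 rose, 6 fell and 5 were not called, with a median log2 fold change of 0.11 against 0.15 over all tested probe sets. Among all 9641 genes taken this way, 42.9% were called higher and 29.5% lower. Mdm4, the Mdm2 relative that blocks p53's activation domain, rose from 982 ± 59.3 to 2119 ± 29.8 (log2 fold change 1.11, limma adjusted p = 1.45e-08), with 1 of its 2 other tested probe sets called in the same direction. Rchy1, a ubiquitin ligase for p53 also known as Pirh2, rose from 1111 ± 74.4 to 2266 ± 24.2 (log2 fold change 1.03, adjusted p = 2.58e-08). Ep300, an acetyltransferase and p53 coactivator, rose 1.61-fold, and Rpl11, a ribosomal protein that binds Mdm2, rose 1.31-fold as deposited but stood at a log2 fold change of 0.03, not called, with hybridization control scaling. Chek1, the checkpoint kinase, was 1.79-fold lower (2282 ± 96.0 to 1279 ± 97.4, adjusted p = 2.84e-07, with 2 of its 3 other tested probe sets called the same way), and Prmt5, an arginine methyltransferase that acts on p53, was 1.78-fold lower (2859.9 ± 79.7 to 1603 ± 53.5, adjusted p = 3.51e-08). Under hybridization control scaling the list's split became 3 higher and 9 lower, where 21.1% and 50.4% of all genes were called so. Centring the arrays on their median or 75th percentile gave 5 higher and 8 lower. Of all 20494 tested probe sets, 6646 were called higher and 7477 lower when the median was used. For the 75th percentile these counts were 6350 and 7813. Lower calls thus outnumbered higher ones among all tested probe sets too.

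The other p53 targets were called in both directions. Of 39 listed, 29 were tested: 16 rose, 9 fell and 4 were not called, and with hybridization control scaling 12 rose and 12 fell. Over all genes the shares were 42.9% higher and 29.5% lower as deposited, and 21.1% and 50.4% with that scaling. Their median log2 fold change was 0.33, and -0.04 with that scaling, where the median of all tested probe sets was -0.21. Bbc3, the pro-apoptotic PUMA, rose from 458 ± 47.4 to 2044 ± 33.0 (log2 fold change 2.16, limma adjusted p = 1.1e-09). Cdkn1a, the cell cycle inhibitor p21, rose from 4320.0 ± 63.8 to 5891 ± 204 (log2 fold change 0.45, adjusted p = 1.8e-06), and was at 0.08 and not called with hybridization control scaling. Fas, the death receptor, was called Absent on every mock array at 151, 104 and 127 and Present at 603, 487 and 518 (fitted log2 fold change 2.09, adjusted p = 2.27e-07). Sesn2, a second sestrin, was likewise Absent on the mock arrays, at 523, 502 and 525, and Present at 1177, 1167 and 1067 (fitted log2 fold change 1.14, adjusted p = 4.67e-08). A detection call of Absent at such signals means that both folds depend on levels not told apart from background. Fas and Sesn2 were tested only through their Nup98::Nsd1 arrays, and both count among the 16 that rose.

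The other targets named by rule that rose were Trim8 (2.09-fold), a ubiquitin ligase, Abhd4 (2.04-fold), a lipid hydrolase, Trp53inp1 (3084 ± 96.3 against 1541 ± 120.3), a stress protein of autophagy and cell death, and Ier5 (1.95-fold), an early response gene. Tigar, which lowers the glycolytic activator fructose-2,6-bisphosphate, fell from 269 ± 34.8 to 101 ± 25.9 (log2 fold change -1.45, limma adjusted p = 4.7e-05), the 145th largest fall of the 20494 tested probe sets. Ei24, a protein of the endoplasmic reticulum, fell from 4261 ± 99.7 to 2670.4 ± 104 (log2 fold change -0.67, adjusted p = 1.21e-07). Each of these 6 kept its call under every scaling.

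**Figure D4:**
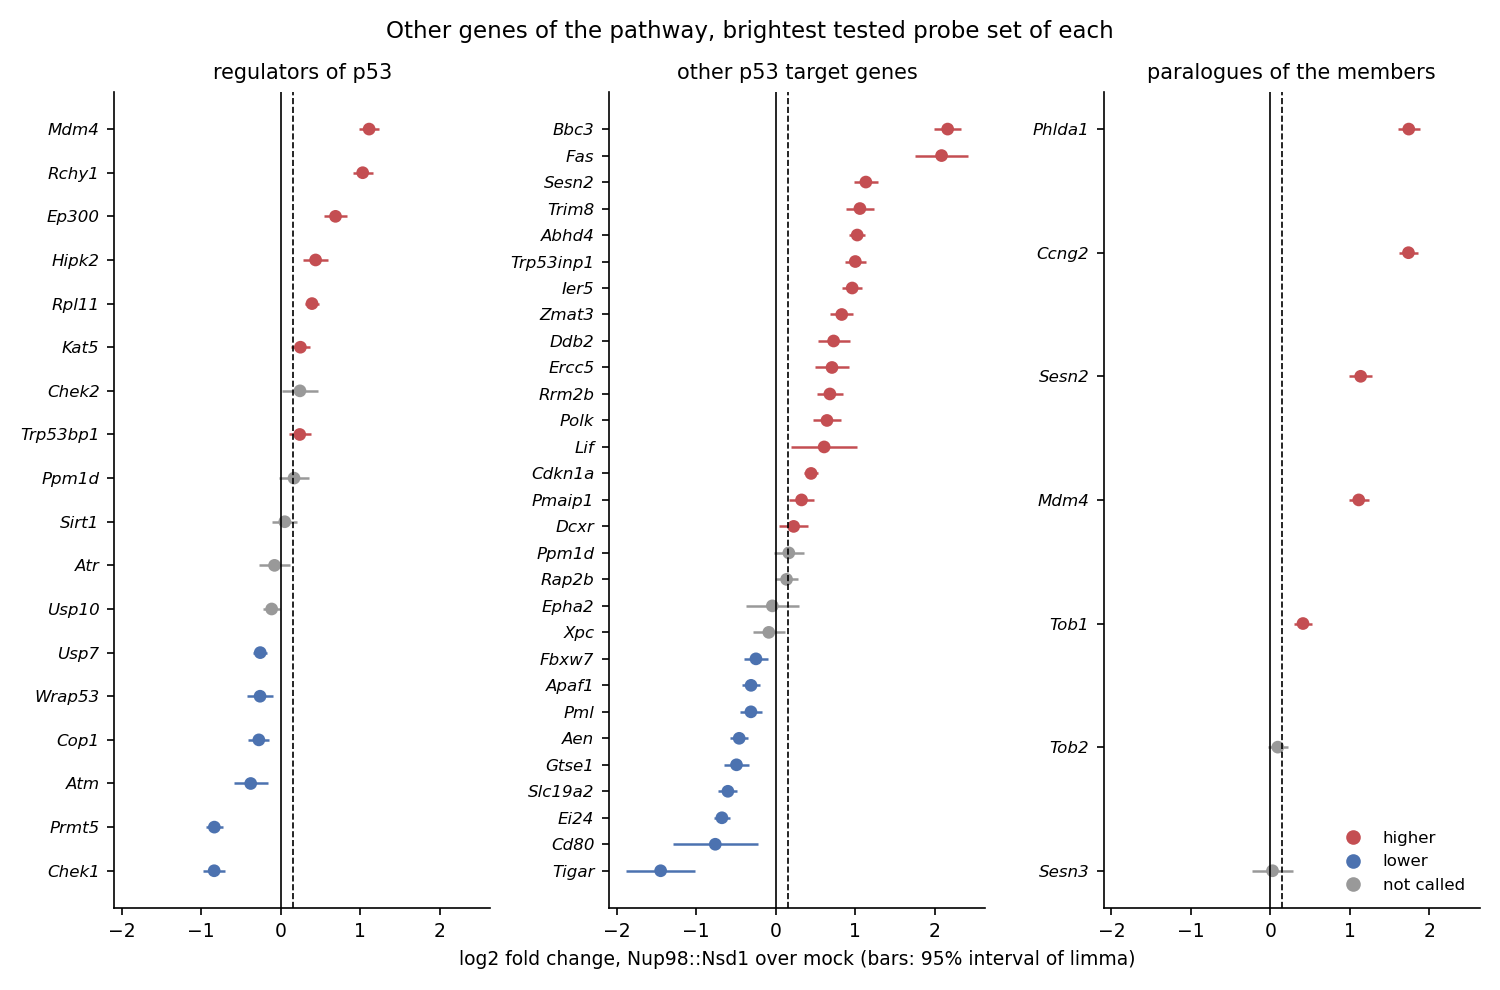
Each point is the log2 fold change of a gene at its brightest tested probe set, Nup98::Nsd1 over mock, with its 95% interval from limma, in 3 lists (18 regulators, 29 other targets, 7 paralogues); colours mark calls as higher (red), lower (blue) or not called (grey), and the dashed line is the median of all tested probe sets, 0.15. Calls lie on both sides of 0 among regulators and targets, and no paralogue was called lower as deposited (2 were with hybridization control scaling).

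Of 12 listed paralogues of the members 7 were tested, and 5 rose and 0 fell (limma, adjusted p under 0.05), against 42.9% and 29.5% of all genes. With hybridization control scaling the counts were 4 and 2, against 21.1% and 50.4%. Sesn2, Absent on all mock arrays, was tested only through its Nup98::Nsd1 arrays and counts among the 5. Their median log2 fold change was 1.11. All 7 stood above 0 as deposited, so 0 fell at an unadjusted p under 0.05 as well. Ccng2, the cyclin G1 relative cyclin G2, rose from 808 ± 37.6 to 2691 ± 7.97 (log2 fold change 1.74, adjusted p = 3.55e-10), opposite in direction to Ccng1. Phlda1, a relative of Phlda3, rose from 502 ± 8.78 to 1679 ± 97.9 (log2 fold change 1.74, adjusted p = 1.31e-09). Tob1, an antiproliferative relative of the Btg proteins, rose 1.33-fold as deposited, and was at 0.04 and not called with hybridization control scaling. Mdm4 and Sesn2, already described, were the other 2 that rose.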

How the data were processed

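Per the labels and the submitters' processing notes, total RNA (100 ng) was labelled as biotinylated cRNA and arrays were processed with MAS5; the sources used here give neither its version nor its scaling target. Per the file headers, the authors deposited for each probe set a scaled signal, an intensity on a linear scale, a detection call and a detection p-value. The matrix of the series held the same intensities (largest relative difference 5e-06). Probe sets were named by GEO's platform annotation, with symbols updated by Entrez identifier in a RefSeq table.

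Signals under 1 were set to 1 and taken to log2. Probe sets called Present on each of the 3 arrays in mock cells, in Nup98::Nsd1 cells or in both were tested (20494), using a moderated fit of limma (version 3.58.1, R 4.3.3) with an intensity trend, and p-values were adjusted over all of them by Benjamini and Hochberg's method at 0.05. The fit was tested on simulated data with few changed probe sets and no shift between arrays, a setting unlike these data. Fold changes put Nup98::Nsd1 over mock; a value given as "-fold lower" is the inverse. The change of 1 probe set relative to another on the same array was tested by exact permutation (scipy 1.17.1) over the 20 assignments. Named were all members and, in each list, up to 6 called genes with the smallest p, any gene changed at least 2-fold, and Cdkn1a and Bbc3. A gene was taken at its tested probe set of highest mean log2 signal. Members and lists were chosen with earlier results of these data known. The alternatives were pseudocounts of 16 and 64, other detection filters, 4 scalings (quantile, 75th percentile, median of tested probe sets, hybridization controls), the matrix of the series, no trend, array weights, the replicate number as a block, and leaving out each array.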

Additional observations from a re-analysis of the deposited data

How the results depend on the processing

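Of the 19 member results, 12 kept their direction and call under every alternative in which they could be fitted. The exceptions followed mainly the scaling of the arrays. With hybridization control scaling, 10 member probe sets were called lower in place of 6, 2 rises lost their call (Btg1 1426083_a_at, 0.10; Sesn1 1438931_s_at, 0.14), and log2 fold changes became negative for Mdm2 1423605_a_at (-0.33), Sesn1 1433711_s_at (-0.24), Sesn1 1454699_at (-0.33), Phlda3 (-0.28) and Gadd45g (-0.20). With 75th percentile centring the same 5 were at -0.16, -0.0711, -0.16, -0.11 and -0.0269, and with median centring at -0.13, -0.0444, -0.13, -0.0878 and -0.0001. Quantile normalization turned Phlda3 to -0.0549 and Gadd45g to -0.0582, and called Sesn1 1433711_s_at higher (0.16). Leaving out 1 array at a time gave 8 to 9 member probe sets higher and 6 lower. Of all 20494 tested probe sets, 8089 to 8405 were then called higher and 5260 to 5453 lower. Without Nup98Nsd1 replicate 2, Sesn1 1433711_s_at was called higher at 0.18. With the replicate block, 8 member probe sets were higher and 6 lower, as without it, against 8628 and 5629 of all 20494. Same-numbered arrays showed no shared deviation from their group means (correlations -0.017, -0.011 and 0.021). With so few arrays per group, these correlations cannot tell whether same-numbered samples were handled together. The causes were not tested. Which scaling holds cannot be settled from these files. Dim probe sets (Btg1 1442018_at, Sesn1 1444376_at) had signals under 100 in mock cells, with the widest errors. Both Btg2 probe sets were nearly as dim, with mock signals of 87.7 to 131 at 1448272_at and 90.7 to 104 at 1416250_at.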

Other observations

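By the rule of likeness, the 3 genes whose log2 signal followed that of Mdm2 (1423605_a_at) most closely over the 6 arrays, of 8850 genes Present on all of them, were Pex10, a peroxisome assembly protein, Ears2, the mitochondrial glutamyl-tRNA synthetase, and Zfp385c, a zinc finger protein. Their Pearson correlations with Mdm2 were 0.98, 0.97 and 0.95 over 6 arrays, and signals on the same array share any error of its scaling. These correlations were picked as the highest of 8850, so values of this size can arise among unrelated genes. A link of these genes to Mdm2 was not tested. The log2 fold changes of Pex10, Ears2 and Zfp385c were 0.26, 0.10 and 0.13, and none was called (limma adjusted p = 0.202, 0.52 and 0.643), as for Mdm2 at this probe set.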
